A study of Mus musculus with 8 samples.

Results

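The Lin28 and let-7 axis genes described here are 10 genes read from the deposited gene tables by symbol: Lin28a, Lin28b, Hmga1, Hmga2, Igf2bp1, Igf2bp2, Igf2bp3, Arid3a, Trim71 and Mycn. They were taken from 22050 genes with an mRNA model, and each was followed by its exon, intron and exon-exon (splice junction) reads. The samples were hematopoietic stem cells (HSCs) sorted from C57BL/6 mouse bone marrow as CD150+ CD48- EPCR+ and lineage-negative cells. There were 4 libraries of pups 5 days after birth (P5) and 4 of mice aged 4 weeks. The labels record no transgene, deletion or treatment in either group, and each library was made from 100 sorted cells. Cultured HSCs named in the series' design text were not analysed here.

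LIN28A and LIN28B are RNA-binding proteins that block the maturation of let-7 microRNAs, and let-7 in turn represses the mRNAs of both. In fetal blood stem cells Lin28b is high and let-7 low, and the pair reverses as animals mature. Hmga2, the Igf2bp genes, Arid3a, Trim71 and Mycn are known let-7 targets or act in the same fetal program. This background is from textbook knowledge, and let-7 RNA itself is too short for these libraries to measure.

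The members are linked by the let-7 seed, bases 2 to 8 of the microRNA. It is in capitals in 4 mature mouse sequences from RefSeq (GRCm38.p6), chosen to show that the seed stays the same while the rest of the sequence varies.

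let-7a-5p: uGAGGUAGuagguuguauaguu

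let-7d-5p: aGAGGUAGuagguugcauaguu

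let-7i-5p: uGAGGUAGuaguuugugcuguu

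miR-98-5p: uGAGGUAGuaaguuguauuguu

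A site was counted in the mRNA strand of a 3'UTR where it held CTACCTCA (8mer), CTACCTC without the last A, or TACCTCA without the first C, each position being counted once. All 10 members held at least 1 site, and 8 held an 8mer. Of 21010 mouse 3'UTRs, 14.9% held any site and 3.06% an 8mer. Among 3'UTRs close in length to a member's, the share with an 8mer ran from 2.07% for Mycn to 12.1% for Igf2bp1. The share with at least as many sites as the member ran from 0.0692% for Hmga2 to 22.4% for Igf2bp3. The members were picked as genes of this axis, so their sites are a description and not a finding. Hmga2 held 7 sites in 3014 bases of 3'UTR, Trim71 held 6, Lin28b and Igf2bp1 held 5 each and Arid3a held 4. Lin28a, Igf2bp2 and Mycn held 2 each, and Hmga1 and Igf2bp3 held 1 each. One 30-base window is shown for each member other than Lin28a, Trim71 and Hmga1, with the seed match in capitals at its end (GRCm38, GENCODE M21 models).

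Lin28b, chr10:45381022-45381051, minus strand: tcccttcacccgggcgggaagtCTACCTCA

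Hmga2, chr10:120364224-120364253, minus strand: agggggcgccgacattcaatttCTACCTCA

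Igf2bp1, chr11:95961778-95961807, minus strand: aggcagtgctgtgcgaagtaaaCTACCTCA

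Igf2bp2, chr16:22059473-22059502, minus strand: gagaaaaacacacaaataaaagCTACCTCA

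Igf2bp3, chr6:49086787-49086816, minus strand: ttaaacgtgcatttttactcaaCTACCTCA

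Arid3a, chr10:79953888-79953917, plus strand: cacatgcaaggcaagtttctttCTACCTCA

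Mycn, chr12:12936499-12936528, minus strand: ttcacacctaagtactgtaagaaTACCTCA

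Libraries held 6142760 to 7470777 exon reads at P5 and 5775130 to 7212446 at 4 weeks. Y-linked genes were at 59 and 71 reads in P5 replicates 1 and 3 and at 8880 or more in the other 6 libraries, and Xist had 1329 and 1940 reads in those same libraries and at most 6 in the others. The P5 group thus mixes libraries with and without Y-linked reads. Introns took 60.1% of the reads of mRNA genes in P5 replicate 1, the lowest share of any library. Nothing in the labels says whether replicates came from separate animals, so the p-values measure the spread between libraries only, and that spread may be technical. In bulk samples, fewer cells of a type and less RNA per cell cannot be told apart. Kit, Procr and Slamf1, which mark HSCs or their sort gate, were read at 1012 ± 46.6, 55.0 ± 7.996 and 33.8 ± 4.69 CPM (CPM are exon reads scaled by edgeR to the same effective library size; mean ± SD, n = 4) at P5.

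Of the 10 members, 7 were higher at P5 by exon reads, none was lower, Mycn did not pass the test, and Lin28a and Trim71 fell under the filter on low counts. The test was edgeR's quasi-likelihood test over 12235 genes, with a Benjamini-Hochberg adjusted p under 0.05 called. By that test 7.99% of genes were higher at P5, 8.55% were lower and 16.5% were called in either direction. The P5 and 4-week libraries of the same 7 members did not overlap, as was the case for 21.2% of tested genes. The median log2 fold change was 2.04 over the 8 tested members and -0.0042 over all tested genes. The members were chosen with results of these data known.

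**Figure D1:**
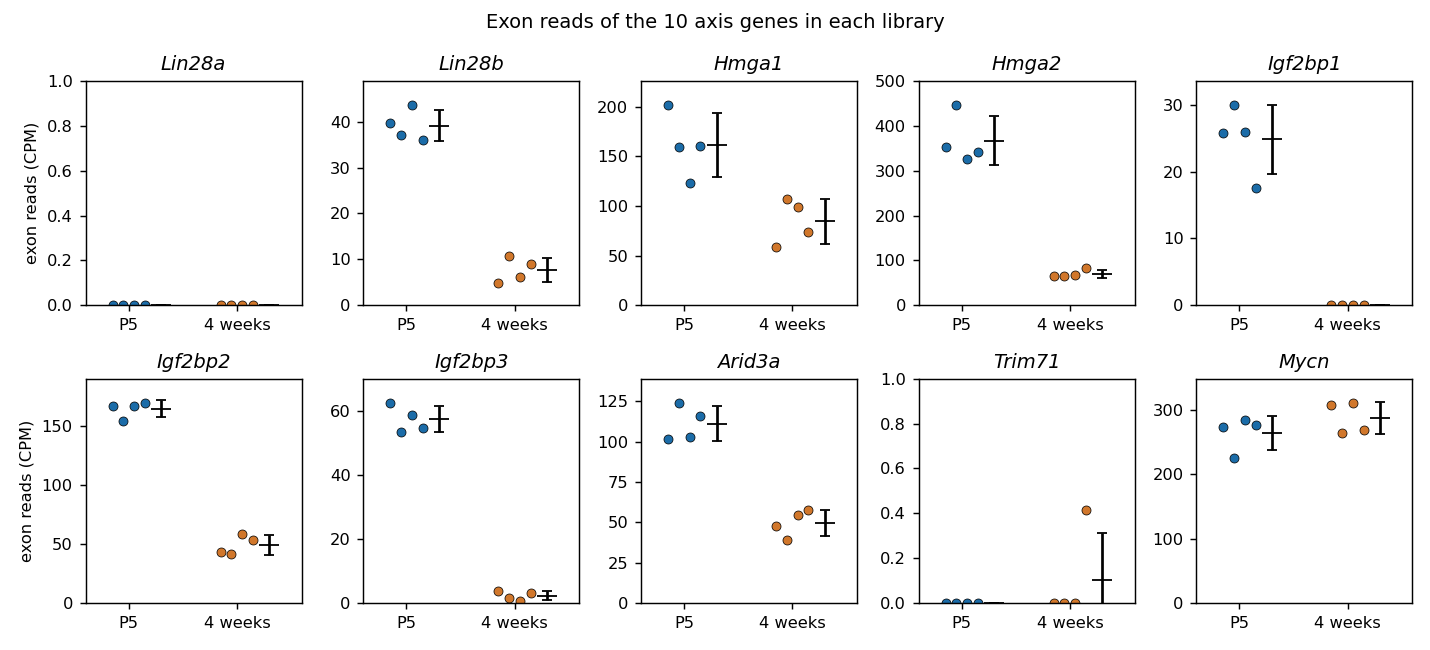
Exon reads of each of the 10 genes (CPM, linear axis from 0) in the 4 P5 and 4 four-week libraries; each point is a library, and the bar to its right is the mean with the SD. In 7 genes every P5 library lies above every 4-week library, while Mycn overlaps and Lin28a and Trim71 lie at or near 0.

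Lin28b and Lin28a encode the RNA-binding proteins that block let-7 maturation, and Lin28b is the one read in these cells. Lin28b (chr10:45376617-45486314 in GRCm38.p6) was at 39.8, 37.1, 43.6 and 36.1 CPM in the P5 libraries and at 4.90, 10.7, 6.23 and 9.00 CPM at 4 weeks. The ages did not overlap, and the lowest P5 library lay well above the highest 4-week one. Lin28b was 5.07-fold higher at P5 (log2 fold change 2.34, SE 0.205, edgeR adjusted p = 6.06e-06). Its intron reads were higher at P5 as well, by 1.76 on the log2 scale (SE 0.22, edgeR adjusted p = 0.000297). Exon-exon reads of Lin28b numbered 42 at P5 and 7 at 4 weeks, under the filter. With no filter beyond 1 read they were higher at P5 (log2 fold change 2.40, edgeR adjusted p = 0.01995), although P5 replicate 2 had none. Lin28a (chr4:134003330-134019196) had 0 exon reads in all 8 libraries, where a count of 3 over the group would be 0.111 CPM at P5 and 0.119 CPM at 4 weeks. It had 2 intron reads, both at P5.

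The Igf2bp family encodes RNA-binding proteins that bind and stabilise target mRNAs, and its 3 members were higher at P5 by very different amounts. Igf2bp1 (chr11:95957163-96005944) was at 25.8, 29.997, 26.0 and 17.6 CPM at P5 and at 0 in every 4-week library. Its 668 exon reads at P5 against none at 4 weeks made it at least 208-fold higher at P5, taking 3 counts over the group as the floor (edgeR adjusted p = 8.69e-07). Introns of Igf2bp1 held 977 reads at P5 and 18 at 4 weeks, a 54.9-fold difference, with intron reads present in each 4-week library. Igf2bp3 (chr6:49085218-49215469) was at 62.4, 53.5, 58.5 and 54.6 CPM at P5 and at 3.63, 1.38, 0.673 and 3.19 CPM at 4 weeks. It was 24.99-fold higher at P5 (log2 fold change 4.64, SE 0.281, edgeR adjusted p = 2.05e-07). Only 28.2% of Igf2bp3's exon reads mapped uniquely, and these numbered 446 at P5 and 8 at 4 weeks. Malsu1 overlaps Igf2bp3 over 53928 bases of the gene table's coordinates, and the libraries do not mark strand. Malsu1 itself had a log2 fold change of -0.26 (edgeR adjusted p = 0.296).

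Igf2bp2 (chr16:22059009-22163299) was the family member still read at a higher level at 4 weeks. It was at 167, 154, 167 and 170 CPM at P5 and at 43.0, 41.4, 58.7 and 53.3 CPM at 4 weeks, 3.35-fold higher at P5 (log2 fold change 1.74, SE 0.111, edgeR adjusted p = 3.6e-07). Counted per kb of exon, Igf2bp2 made up 74.3% ± 1.78 (SD, n = 4) of the 3 family members' reads in P5 libraries and 96.5% ± 2.27 in 4-week ones, with no overlap between ages. This and the within-family ratios given below, 4 in all, were chosen after values were seen. They reuse exon reads of the same libraries, so they are descriptions and no p-value is given for them.

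Hmga1 and Hmga2 encode chromatin proteins that bind AT-rich DNA, and Hmga2 is the fetal stem cell member. Hmga2 (chr10:120361268-120476469) was at 353, 447, 327 and 343 CPM at P5 and at 65.1, 66.0, 67.0 and 83.7 CPM at 4 weeks. It was 5.21-fold higher at P5 (log2 fold change 2.38, SE 0.116, edgeR adjusted p = 4.99e-08). Hmga1 (chr17:27556574-27563672) was at 202, 160, 123 and 160 CPM at P5 and at 58.6, 108, 98.9 and 73.6 CPM at 4 weeks, 1.91-fold higher (log2 fold change 0.93, SE 0.178, edgeR adjusted p = 0.00283). Its ages came closest to each other of the 7 called members, with 123 CPM at P5 against 108 CPM at 4 weeks. Hmga1 has 2 rows on 2 contigs, no exon read mapped uniquely to it, and its value is uncertain. Hmga2's share of Hmga1 plus Hmga2 per kb was 47.9% ± 5.35 at P5 and 25.8% ± 6.10 at 4 weeks, with no overlap.

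Arid3a encodes a DNA-binding protein best known in B cells. Arid3a (chr10:79927043-79955018) was at 101, 124, 103 and 116 CPM at P5 and at 47.9, 39.3, 54.2 and 57.8 CPM at 4 weeks, 2.23-fold higher at P5 (log2 fold change 1.15, SE 0.122, edgeR adjusted p = 2.64e-05). Its relative Arid3b had a log2 fold change of -0.27 (edgeR adjusted p = 0.255). Arid3a's share of the pair per kb was 70.02% ± 2.72 at P5 and 46.0% ± 5.92 at 4 weeks, with no overlap. The B cell markers, whose genes are listed for cells the sort could hold, are given with the other marker lists.

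Mycn, a MYC-family transcription factor, did not pass the test by exon reads. Mycn (chr12:12936093-12941836) was at 273, 225, 284 and 276 CPM at P5 and at 307, 265, 311 and 269 CPM at 4 weeks, so the ages overlapped (log2 fold change -0.12, SE 0.0905, edgeR adjusted p = 0.4). Myc, the relative, was lower at P5, at 89.3 ± 20.4 CPM against 140 ± 17.9 CPM at 4 weeks (log2 fold change -0.64, SE 0.146, edgeR adjusted p = 0.00804). Mycn's share of Mycn plus Myc per kb was 73.5% ± 3.34 at P5 and 65.6% ± 3.63 at 4 weeks, with no overlap. Trim71 (chr9:114511268-114564369), a ubiquitin ligase and RNA-binding protein, had 3 exon reads in all, each in 4-week replicate 4. Its intron reads were 29 at P5 and 30 at 4 weeks (CPM, exact two-sided permutation p = 1.0).

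Counted per kb of exon, Mycn stood highest at both ages, at 102 ± 10.3 CPM per kb at P5 and 111 ± 9.49 CPM per kb at 4 weeks. Hmga1 and Hmga2 followed at P5, at 78.9 ± 15.7 and 71.8 ± 10.6 CPM per kb, and the libraries of each pair of neighbours among these 3 overlapped. Igf2bp2, Arid3a, Igf2bp3, Lin28b and Igf2bp1 came next, at 37.4, 16.9, 9.98, 4.29 and 2.97 CPM per kb, with no overlap between neighbours. At 4 weeks Hmga2, at 13.8 ± 1.73 CPM per kb, overlapped Igf2bp2 at 11.2 ± 1.89 CPM per kb. Lin28b at 0.845 CPM per kb overlapped Igf2bp3 at 0.387 CPM per kb, so the order of that pair is not set by these libraries.

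**Figure D2:**
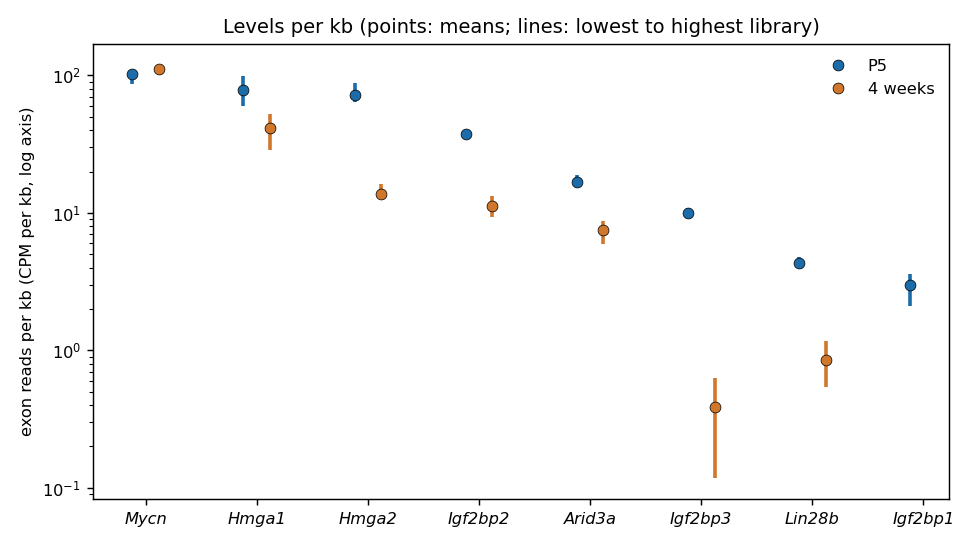
Exon reads per kb (CPM per kb, log axis) of the 8 members with reads at P5; points are means of 4 libraries and lines run from the lowest to the highest library. Igf2bp1 has no 4-week point since all those libraries were at 0, and Mycn lies at about the same height at both ages.

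Intron and exon-exon reads gave 2 further measures of the same genes. By intron reads 7 of the 8 tested members were called, 6 higher and Mycn lower, where 9.01% of 13182 genes were higher, 8.87% lower and 17.9% called in either direction. Intron reads of Mycn were at 6.98, 8.52, 9.04 and 8.46 CPM at P5 and at 19.9, 12.6, 22.5 and 17.6 CPM at 4 weeks. They were lower at P5 by 1.13 on the log2 scale (SE 0.204, edgeR adjusted p = 0.00292). The intron call of Hmga1 (log2 fold change 0.63, edgeR adjusted p = 0.047) was lost in 10 of 16 alternatives. By exon-exon reads 6 of the 7 tested members were higher at P5, where 4.35% of 9191 genes were higher, 5.03% lower and 9.38% called in either direction. These reads are part of the exon reads and are no separate evidence. They were 2.93-fold higher for Hmga2, 3.59-fold for Igf2bp2 and 37.5-fold for Igf2bp3.

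Arid3a, Hmga2 and Mycn had exon changes that differed from their intron changes, each with the exon change more positive. The difference was tested as an interaction of age and read class in 1 edgeR model over exon and intron reads, where 3.32% of 11399 genes had a more positive exon change, 3.06% a more negative one and 6.38% either. With Igf2bp1, described further on, 4 of the 8 members tested were called. Arid3a's exon reads were higher at P5 by 1.15 on the log2 scale while its intron reads had a log2 fold change of 0.19 (edgeR adjusted p = 0.502), a difference of 0.97 (SE 0.15, edgeR adjusted p = 0.00107). Intron reads of Arid3a were at 31.7, 47.9, 34.2 and 37.5 CPM at P5 and at 35.0, 24.7, 41.9 and 31.2 CPM at 4 weeks, so those overlapped. Mycn differed by 0.99 (SE 0.149, edgeR adjusted p = 0.000874). Hmga2's exon reads were higher at P5 by 2.38 and its intron reads by 1.47, a difference of 0.91 (SE 0.103, edgeR adjusted p = 0.000103). Its exon-exon reads, however, were higher by 1.55 (SE 0.212), nearer its intron value than its exon value. For Arid3a the exon-exon change was 1.26 (SE 0.198) and for Mycn -0.055 (SE 0.194), both nearer the exon value. How exon-exon changes differ from the other 2 was not tested.

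**Figure D3:**
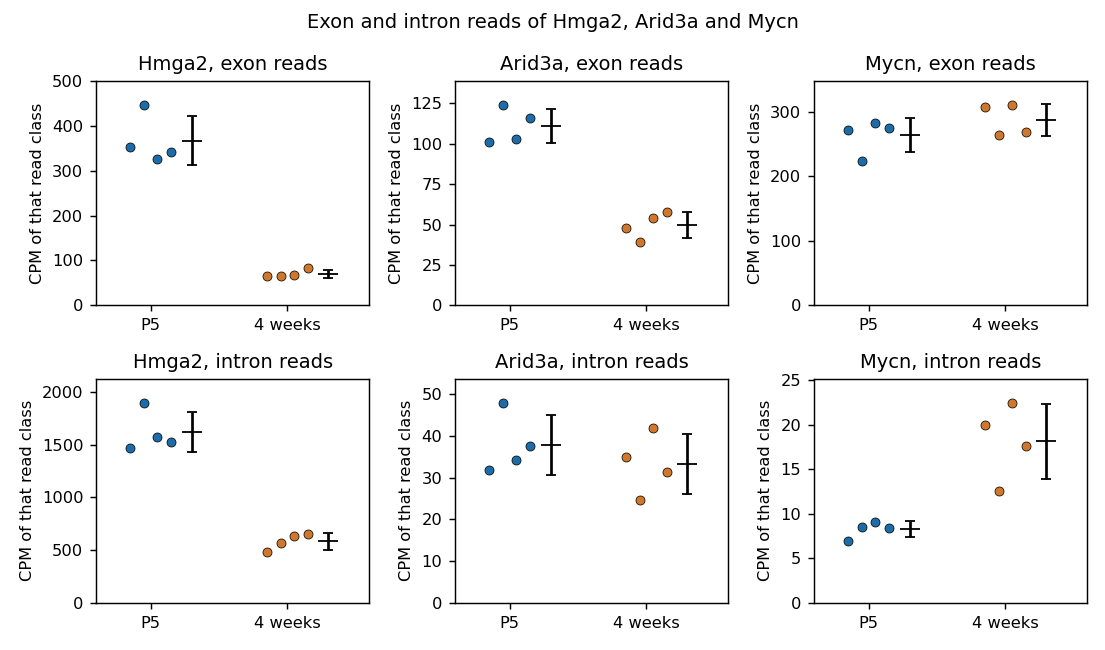
Exon reads (top) and intron reads (bottom) of Hmga2, Arid3a and Mycn, each as CPM of its own read class on a linear axis from 0; points are libraries, bars are means with SD. Arid3a's intron reads overlap between ages while its exon reads do not, and Mycn's intron reads are lower at P5 while its exon reads overlap.

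Igf2bp1 also passed this test (edgeR adjusted p = 0.0299), but the fitted size rests on 0 exon reads at 4 weeks, and the call was lost without 4-week replicate 1, 3 or 4 and in both settings that take Y-linked reads into account. Lin28b's difference was 0.61 (SE 0.197, edgeR adjusted p = 0.072), and it passed without P5 replicate 1 (adjusted p = 0.0286). The differences of Igf2bp2 at 0.17 (SE 0.112), Igf2bp3 at 0.18 (SE 0.224) and Hmga1 at 0.33 (SE 0.225) did not pass. Intron reads made up 31.1% to 43.9% of Arid3a's gene reads at P5 and 54.3% to 61.6% at 4 weeks. Hmga2's exon reads crossed a splice junction in 3.12% of cases at P5 and 5.51% at 4 weeks, so most came from within single exons.

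**Figure D4:**
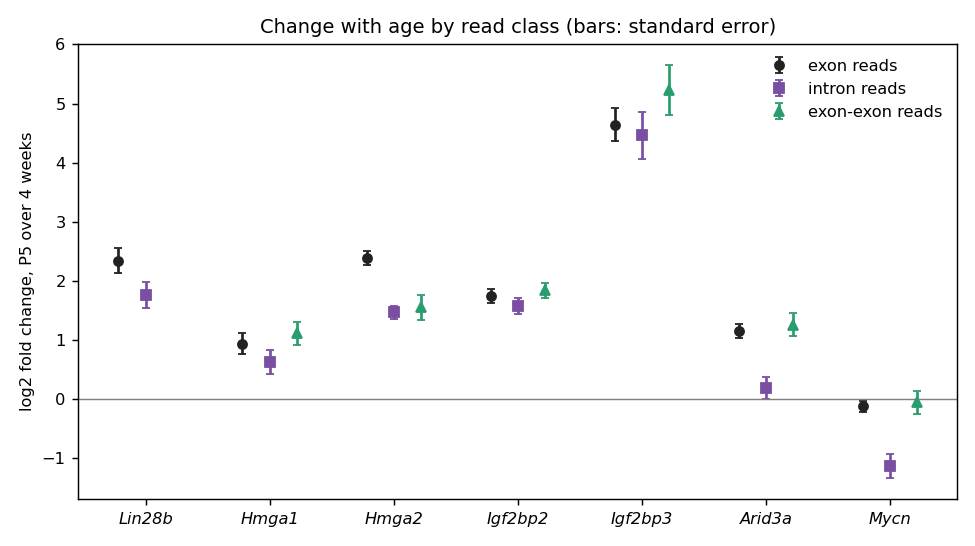
Log2 fold change at P5 over 4 weeks by exon, intron and exon-exon reads for 7 members, with bars of 1 standard error; Igf2bp1 is left out because its 4-week exon reads are 0, and Lin28b has no exon-exon value. Exon values lie above intron values for all 7, most for Arid3a, Mycn and Hmga2.

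The genes that process microRNAs, including let-7, were mostly not called. Of 25 tested, 1 was higher at P5 and none lower, where 7.99% of all genes were higher and 8.55% lower. The median log2 fold change of the 25 was 0.018. The gene called higher was Tarbp2, the partner of Dicer. Tarbp2 was at 70.1 ± 7.70 CPM at P5 and 43.5 ± 1.17 CPM at 4 weeks (log2 fold change 0.69, SE 0.105, edgeR adjusted p = 0.000586). Dicer1 and Drosha, which cut microRNA precursors, had log2 fold changes of 0.20 (edgeR adjusted p = 0.105) and 0.22 (edgeR adjusted p = 0.152). Hnrnpa1, the list's most abundant gene per kb, had one of 0.05 (edgeR adjusted p = 0.794). The terminal uridylyl transferases that act with Lin28 on let-7 precursors, listed as Zcchc11 and Zcchc6, were at 187 and 197 CPM at P5 and at 185 and 196 CPM at 4 weeks. Intron reads of Zcchc6 were higher at P5 (log2 fold change 0.66, edgeR adjusted p = 0.000497). By the interaction test 2 of 25 genes, Zcchc6 and Dhx9, had a more negative exon change, and none a more positive one. Over all genes 3.06% were more negative and 3.32% more positive.

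The let-7 loci themselves had almost no reads. The 12 rows of let-7 and miR-98 hairpins held 32 gene reads at P5 and 19 at 4 weeks in all, with at most 7 in a library. Those with any read were Mirlet7a-1, Mirlet7b, Mirlet7c-2, Mirlet7d, Mirlet7f-1 and Mirlet7i. Mirlet7bhg, the host transcript of let-7b and let-7c-2, had 79 to 98 gene reads at P5 and 108 to 221 at 4 weeks, which did not overlap (3.73 ± 0.424 against 6.50 ± 1.40 as CPM of all gene reads, exact two-sided permutation p = 0.0286, 0.114 after adjustment over 4 hosts). Mir99ahg had 8662 to 10933 gene reads at P5 and 7388 to 9881 at 4 weeks. Huwe1 and Wdr82, hosts of other let-7 family members, overlapped between ages. Reads on a host are not a measure of mature let-7.

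Of 28 tested of 34 other known let-7 targets, 5 were higher and 4 lower at P5, where 7.99% of all genes were higher and 8.55% lower, and the median log2 fold change was 0.13. The higher count fell to 2 without P5 replicate 2, P5 replicate 3 or 4-week replicate 4, and rose to 7 without 4-week replicate 2, while 4 were lower with any single library left out. Among the higher were Ccnd1, Plagl2, Tgfbr1 and Insr, and lower were Zbtb16, Cdk6, Tgfbr3 and Myc. Ccnd1, a cell cycle cyclin, was at 83.9 ± 20.0 CPM at P5 and 39.5 ± 5.33 CPM at 4 weeks (log2 fold change 1.09, edgeR adjusted p = 0.000355). Zbtb16, a transcription factor, was at 6.60 ± 4.00 CPM at P5 and 40.9 ± 22.04 CPM at 4 weeks (log2 fold change -2.64, edgeR adjusted p = 0.00085). Cdk6, a cell cycle kinase, was lower at P5 by 0.51 on the log2 scale (edgeR adjusted p = 0.00237). Ccnd2, the most abundant target per kb, had a log2 fold change of -0.12 (edgeR adjusted p = 0.285). Of 26 targets in the interaction test, none had an exon change more positive than its intron change, and 3 had a more negative one. Over all genes in that test 3.32% were more positive and 3.06% more negative.

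**Figure D5:**
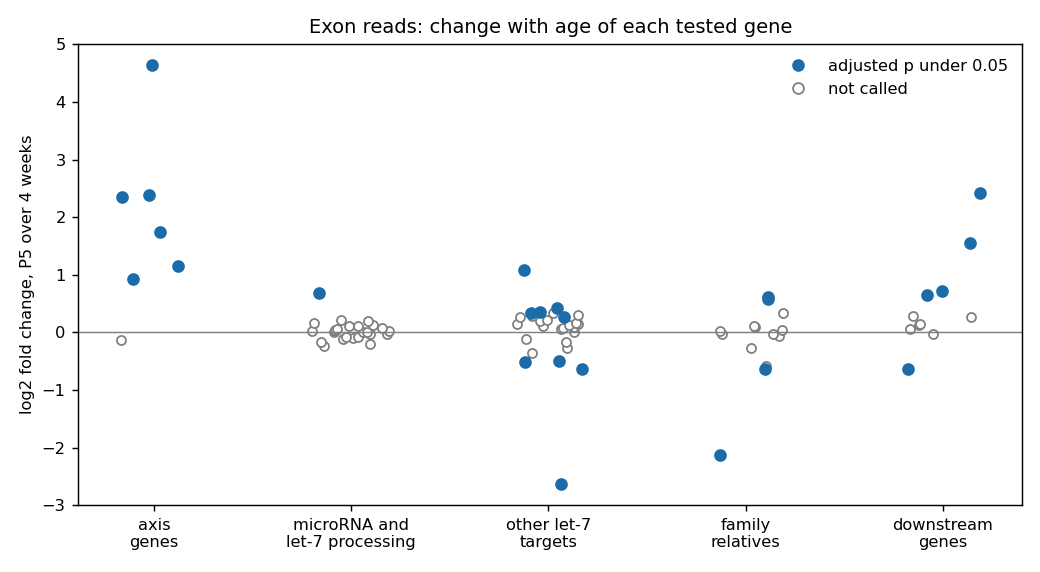
Log2 fold change of exon reads at P5 over 4 weeks for each tested gene of 5 lists; filled points have an edgeR adjusted p under 0.05 and open points do not. Igf2bp1 is left out for its 0 reads at 4 weeks, and the genes of microRNA processing lie near 0.

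Among relatives of the members and genes downstream of them, counts were small. Of 14 tested relatives 2 were higher and 2 lower. Hmgb3 was higher at P5 by 0.62 on the log2 scale (edgeR adjusted p = 0.0432). Trim2 was lower at P5 by 2.12 (edgeR adjusted p = 0.00375), and Myc was lower as above. Of 11 tested downstream genes 4 were higher at P5 and 1, Myc, was lower, against 7.99% higher and 8.55% lower of all genes. Igf2, the growth factor whose mRNA the Igf2bp proteins bind, was at 29.4 ± 5.64 CPM at P5 and 5.58 ± 3.61 CPM at 4 weeks (log2 fold change 2.42, edgeR adjusted p = 0.00048). Cd44 was at 459 ± 8.80 CPM against 280 ± 20.6 CPM (log2 fold change 0.72, edgeR adjusted p = 1.8e-05), and Cdkn1a at 9.00 ± 1.499 CPM against 3.08 ± 1.23 CPM (log2 fold change 1.56, edgeR adjusted p = 0.00398). Actb and Hmgn2, the most abundant of these genes per kb, had log2 fold changes of 0.26 (edgeR adjusted p = 0.104) and 0.34 (edgeR adjusted p = 0.186). Cdkn2a, which Hmga2 is known to hold down, had 0 exon reads in all libraries.

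Marker lists of other cells were low or mixed, and their part in the results was not tested. For the counts of called markers below, 7.99% of all tested genes were higher at P5 and 8.55% lower. The embryonic globins Hbb-bh1, Hbb-y and Hba-x had 0 exon reads in every library. The 12 erythroid markers summed to 1200 to 1600 CPM at P5 and 825 to 1050 CPM at 4 weeks, with 1 of 5 tested genes higher and 1 lower. Among them Hbb-bt was at 710 ± 151 CPM against 96.8 ± 21.0 CPM and Alas2 was at 0. The 8 B cell markers summed to 34.1 to 51.7 CPM at P5 and 20.9 to 26.1 CPM at 4 weeks, nearly all of it Cd79b, the 1 tested gene, which was higher, with Ms4a1 and Pax5 at 0. Hepatocyte markers summed to 42.3 to 66.4 CPM at P5 and 30.7 to 52.5 CPM at 4 weeks with Ttr at 0, and myeloid, megakaryocyte, T and NK, and endothelial lists overlapped too. Of 6 tested endothelial and stromal markers 2 were higher and 1 lower at P5. Cdh5, an endothelial cadherin, was at 10.8 ± 6.17 CPM at P5 and had 1 read at 4 weeks, while Pecam1, the most abundant endothelial marker, was at 140 ± 19.1 and 112 ± 16.1 CPM. Tek, an endothelial receptor also found on HSCs, was higher at 151 ± 12.7 against 96.3 ± 10.9 CPM, and Pdgfrb, a stromal receptor, was lower at 3.32 ± 0.342 against 10.9 ± 3.02 CPM. Of 6 tested megakaryocyte markers 1 was higher and 1 lower, with a median log2 fold change of -0.25. Gp9 was higher, at 27.8 ± 4.195 CPM at P5 and 11.1 ± 4.15 CPM at 4 weeks, Itga2b was lower, at 27.1 ± 7.34 against 51.2 ± 5.45 CPM, and Vwf was at 269 ± 41.1 and 302 ± 44.7 CPM. Of 4 tested T and NK markers Cd4 was higher, at 15.6 ± 3.87 against 6.09 ± 1.3 CPM, and Nkg7 lower, at 2.08 ± 0.804 against 9.02 ± 2.66 CPM. The hepatocyte marker Trf was at 50.8 ± 13.1 and 40.7 ± 9.88 CPM. Of 5 tested myeloid markers 2 were higher and 1 lower. Mpo was higher, at 5.62 ± 2.44 against 1.46 ± 0.644 CPM, and so was Csf1r, at 158 CPM in P5 replicate 2, 3.52 to 7.92 CPM in the other P5 libraries and 3.63 ± 0.221 CPM at 4 weeks. Lyz2, the most abundant myeloid marker, was at 172 ± 15.3 and 158 ± 7.46 CPM, and S100a8 was at 0 in every P5 library and at 2.49 ± 0.568 CPM at 4 weeks. The HSC list summed to 5460 to 5940 CPM at P5 and 4890 to 5570 CPM at 4 weeks. Of its 14 genes 3 were higher at P5. They were Fgd5 (433 ± 22.6 against 285 ± 15.4 CPM), Mecom (716 ± 70.6 against 560 ± 35.2 CPM) and Flt3 (113 ± 31.6 against 72.0 ± 16.35 CPM). Ly6a, which encodes Sca-1, was lower (29.6 ± 4.00 against 85.9 ± 17.8 CPM).

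Member levels were compared between the P5 libraries with and without Y-linked reads. Lin28b averaged 36.6 CPM in the 2 P5 libraries with Y-linked reads and 41.7 CPM in the 2 without, Hmga2 395 and 340 CPM, and Igf2bp3 54.0 and 60.5 CPM. The same number of members, 7, was called with only the libraries that hold Y-linked reads. The authors' deposited table, with its own test of the ages, gave Lin28b a corrected p of 3.56e-25, Arid3a one of 1.32e-12, and Mycn, Lin28a and Trim71 one of 1.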

How the data were processed

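HSC libraries were grouped by the age each label gives, 4 libraries an age, and numbered as in their titles. The authors deposited raw read counts, unique and total, for exons, introns and exon-exon junctions of 48835 rows, and, per the file headers, the p-value and corrected p-value of their own EDGE test in the table of P5 replicate 1. Deposited columns of exon length, exon number and positions were used as descriptions. Per the submitters' processing notes the build is mm10. The aligner and counting settings were not given in the sources used here. As the kit does not mark strand, overlapping genes cannot be separated, and with no molecular identifiers floors cover counting error only.

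Numbered copies of a gene were summed (975 genes with an mRNA model), and 24 names that had become dates in P5 replicate 4 were restored by row order. Fits were made in R 4.3.3 by edgeR 4.0.16 after filterByExpr and TMM scaling, with a model of age alone and Benjamini-Hochberg adjustment over all genes tested, threshold 0.05. Standard errors were derived from the F statistic. Alternatives used limma 3.58.1 and DESeq2 1.42.0. The exon against intron test was 1 model with a term for each library. Host transcripts and Trim71's intron reads were compared with exact two-sided permutation tests, where 70 splits allow no p under 0.0286. Fits were tested on simulated data. Python 3.11.15, numpy 2.4.6, pandas 2.3.3 and matplotlib 3.10.9 made tables and figures. Of the listed names, 4 were matched through RefSeq synonyms and 1 matched no single row. Positions of genes are RefSeq's on GRCm38.p6.

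The members and all lists were chosen with earlier results of these data known. Named genes are the 10 members, the 3 with the smallest p and the most reads per kb of each other list, every let-7 locus or host with reads, the genes most like Lin28b, Igf2bp3 and Hmga2, and the most abundant and smallest-p gene of each marker list. Some genes that this rule names are not reported here. Any other gene was chosen with its values in view.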

Additional observations from a re-analysis of the deposited data

Results flagged for a closer look

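In groups of 4 libraries a value was taken as standing apart where its gap to the nearest library, as a share of the group's range, passed Dixon's 95% critical value. Of 44 groups of members by age and read class, 3 held such a value, and chance gives about 5% of groups. Exon reads of Hmga2 in 4-week replicate 4 were highest, at 83.7 CPM. Exon reads of Igf2bp2 in P5 replicate 2 were lowest, at 154 CPM. Exon-exon reads of Mycn in 4-week replicate 3 were lowest, at 33.9 CPM. Leaving out any single library left the exon calls of Hmga2 and Igf2bp2 in place.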

How the results depend on the processing

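Of 31 values for single members, 27 kept direction and side of the threshold in every alternative, and 505 of 523 member alternatives did. The exceptions were the intron value of Hmga1, the exon against intron difference of Igf2bp1 and of Lin28b, and the exon-exon value of Mycn, which is near 0. Leaving out a library moved that last value between -0.15 and 0.0201 on the log2 scale, and it turned positive without P5 replicate 1 (0.0012) or 2 (0.0201); the cause was not tested. Members called by exon reads numbered 7 in every alternative but uniquely mapped reads, where Hmga1 has none and 6 were called. Genes called by exon reads numbered 2023, and 1502 to 1974 with 1 library left out. They were 1236 with Y-linked reads as a covariate and 1257 with only the libraries that hold them. With the replicate number as a block, 1300 genes and 7 members were called by exon reads and 6 members by intron reads, Hmga1 being lost; no other member call changed. Deviations of same-numbered libraries were not positively correlated (correlations -0.24 to -0.03). With so few libraries this cannot show whether same-numbered samples share a batch, and the main model used no pairing. Let-7 targets called were 5 with only Y-linked libraries, against 9, and 6 to 11 with a library left out; microRNA processing genes were 3 with exon plus intron reads, against 1. The cause was not tested. Lin28a and Trim71 had too few reads for a change to be called at this depth.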

Other observations

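Tested genes other than the members, grouped by let-7 sites in their 3'UTR, were at a median log2 fold change of -0.0012 with no site (9600 genes), -0.019 with 1 site (1630 genes), 0.0014 with 2 sites (293 genes) and -0.0086 with 3 or more (72 genes). Higher and lower at P5 were 7.81% and 8.34% of genes with no site, 8.77% and 9.88% with 1 site, 12.3% and 8.53% with 2 sites, and 4.17% and 6.94% with 3 or more, the last being 3 and 5 genes.

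The genes whose exon reads followed a member most closely over the 8 libraries were Cacfd1, Apc and Myadm for Lin28b (Pearson r 0.995, 0.993 and 0.989), Itgb1, Cd53 and Zfp28 for Igf2bp3 (0.993, 0.992 and 0.991), and Pglyrp1 and Ephb2 for Hmga2 (0.996 and 0.994). They were picked from the closest of 11693 genes, and both ages enter each r, so any gene that differs between ages can score high.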
